A study of Mus musculus with 2 samples.

Results

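The G protein-coupled receptors for fatty acids and related lipids, Ffar1, Ffar2, Ffar3, Ffar4 and Gpr119, were followed across the cell kinds of mouse pancreatic islets. These 5 genes were taken by symbol from the 33038 genes listed in either count table, and all 5 passed the filter on low counts. RevGel-seq, a preparation in which each cell is tied to a barcoded bead and held in a reversible hydrogel, was applied to islet cells of C57BL/6J mice that were 8 weeks old and served as controls. The data comprised 2 libraries, which the methods describe as technical replicates of 1 islet preparation from male mice, each started from 10000 cells. Library 1 held 735 cells with 15931154 unique molecular identifiers (UMIs, each a deduplicated transcript), and library 2 held 748 cells with 17440292 UMIs. The p-values below therefore measure only the spread between technical replicates, and no difference between animals was measured.

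Ffar1 (also called GPR40) binds long-chain fatty acids, couples mainly to Gq and is known for raising glucose-stimulated insulin secretion in beta cells. Ffar4 (GPR120) also binds long-chain fatty acids, while Ffar2 (GPR43) and Ffar3 (GPR41) bind short-chain fatty acids such as acetate and propionate, Ffar3 through Gi and Ffar2 through Gi and Gq. Gpr119 binds oleoylethanolamide and monoacylglycerols and couples to Gs, which raises cAMP.

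Cells were grouped by the hormone transcripts they carried. A hormone counted when it reached 1% of a cell's UMIs, with Ins1 and Ins2 added up as insulin. In library 1 and library 2 respectively, 182 and 190 cells were insulin-only, 182 and 174 were Gcg-only, 54 and 68 were Ppy-only, and 35 and 23 were Sst-only. A second hormone was frequent: 65 and 86 cells carried Gcg with Ppy, 77 and 71 carried Sst with Ppy, 37 and 27 carried insulin with another hormone, and 12 and 17 carried Gcg with Sst. With called doublets removed, 65 and 84 cells with Gcg and Ppy, 75 and 71 with Sst and Ppy, and 36 and 23 with insulin and another hormone remained. Doublets that were not called may be among them, and their part was not tested. No hormone reached the threshold in 91 and 92 cells. Marker genes that had no part in this grouping were compared with it. All 8 beta cell markers of the list were highest in insulin-only cells, and 5 of 8 alpha cell markers were highest in Gcg-only cells. Of 5 delta cell markers, 4 were highest in a class with Sst, and of 4 gamma cell markers, 2 were highest in a class with Ppy. All 8 endothelial and all 15 leukocyte markers were highest in cells without a hormone.

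Levels, as used throughout, are UMIs of a gene per 1000000 UMIs other than those of the 5 hormone genes, since hormones took from 9.56% of UMIs (Sst-only, library 1) to 41.4% (insulin-only, library 2) of the single-hormone classes. They were not corrected for gene length, so they compare classes within a gene and not genes with each other. Intervals of levels are 95% exact Poisson intervals, those of ratios of UMIs are exact binomial and those of shares are exact Clopper-Pearson. These cover counting error only. Differences were tested on the counts summed per class and library, across 14528 genes, with edgeR's quasi-likelihood test and Benjamini-Hochberg adjustment. The SE of a log2 fold change is its size over the square root of edgeR's F. Its 95% interval is that SE times a t quantile at 8 residual degrees of freedom, on either side. The edgeR test has its own degrees of freedom, so its p and these intervals need not match.

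On GRCm38, Ffar1 (ENSMUSG00000044453) lies on chromosome 7 at 30857390 to 30861564 on the minus strand and has a single annotated exon. Ffar3 (ENSMUSG00000019429) follows it downstream on the same strand at 30854330 to 30856178, with 1211 bases between the genes. Ffar2 (ENSMUSG00000051314) lies a further 30554 bases downstream, at 30818348 to 30823775. Ffar4 (ENSMUSG00000054200) has 3 exons on the plus strand of chromosome 19, at 38097071 to 38114263. Gpr119 (ENSMUSG00000051209) has 2 exons on the minus strand of chromosome X, at 48667979 to 48674478. No other annotated gene overlaps any of the 5 on either strand.

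The sequences before the starts of Ffar1 and Ffar3 are shown because these neighbors had nearly the same order of levels across classes, as given with their values further on. They come from RefSeq on GRCm38.p6, read 5′ to 3′ on the minus strand, and end at the base before the annotated transcript. Capitals mark E-boxes, the letters CANNTG that basic helix-loop-helix factors such as Neurod1 can bind. The stretch of Ffar1 is chr7:30861565-30861720 and that of Ffar3 is chr7:30856179-30856428. Where the transcripts counted for either gene began was not measured.
Ffar1: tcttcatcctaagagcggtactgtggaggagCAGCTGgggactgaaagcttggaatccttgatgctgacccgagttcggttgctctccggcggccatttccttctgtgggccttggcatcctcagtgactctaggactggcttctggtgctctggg
Ffar3: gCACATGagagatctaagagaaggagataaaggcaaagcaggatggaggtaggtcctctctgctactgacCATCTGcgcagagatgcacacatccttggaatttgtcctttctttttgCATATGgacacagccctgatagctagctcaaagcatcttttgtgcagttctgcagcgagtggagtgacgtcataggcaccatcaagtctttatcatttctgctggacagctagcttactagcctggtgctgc
In windows of 250 bases before the RefSeq starts, both genes held 3 E-boxes. For Ffar1 they began 219, 82 and 59 bases before the start, and the first of them lies outside the transcript model used for the coordinates. For Ffar3 they began 249, 180 and 132 bases before it. Among 32851 windows of the same length over 27025 genes, 66.2% held an E-box and 12.2% held 3 or more. The windows of Ffar4 and Gpr119 held 0, and Ffar2, with 4 windows for its 4 RefSeq starts, held 1 in each. The 2 Ffar2 windows furthest downstream overlap and share the same E-box. All Ffar2 windows but the one furthest upstream lie wholly inside the annotated gene. The homeodomain core TAAT, searched on both strands, was found 0 times in the windows of Ffar1 and Ffar3, 1 time in that of Ffar4, 3 times in that of Gpr119 and 1 time in 2 of the 4 windows of Ffar2, and 54.9% of all windows held it. The TATA box TATAAA, on either strand, was in 12.4% of all windows and in none of those of the 5 receptors.

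Ffar1, the long-chain fatty acid receptor, was highest in insulin-only cells and close to the counting floor in Sst-only cells. Its level was 515 in library 1 and 526 in library 2 in insulin-only cells, or 520 ± 7.31 (SD, n = 2). It was 101 and 103 in Gcg-only cells, 162 and 121 in cells with Gcg and Ppy, and 110 and 89.1 in Ppy-only cells. The Gcg-only and Ppy-only ranges overlapped (log2 fold change 0.06, 95% interval -0.58 to 0.70, edgeR adjusted p = 0.949). In Sst-only cells it was 6.59 and 0, from 3 UMIs in all, and in cells with Sst and Ppy it was 11.2 and 8.23. Insulin-only cells did not overlap any other class in either library. Ffar1 was 5.17-fold higher in insulin-only than in Gcg-only cells (log2 fold change 2.37, SE 0.26, edgeR adjusted p = 2.68e-06) and 5.39-fold higher than in Ppy-only cells (2.43, SE 0.27, edgeR adjusted p = 4.64e-06). Against Sst-only cells the UMIs of both libraries gave a ratio of 131 with a counting interval of 44.6 to 634 (edgeR adjusted p = 1.43e-07). Gcg-only and Ppy-only cells also exceeded Sst-only cells. The ratio was 25.7 for Gcg-only cells (interval 8.74 to 125, edgeR adjusted p = 0.000129) and 24.5 for Ppy-only cells (interval 8.30 to 120, edgeR adjusted p = 0.000292). All 3 UMIs of the Sst-only cells lay in library 1, so the size of these ratios rests on that library. With library 2 of the Sst-only cells left out, the log2 fold change was 6.42 for insulin-only minus Sst-only, 4.05 for Gcg-only minus Sst-only and -3.99 for Sst-only minus Ppy-only cells. With library 1 left out it was 12.68, 10.31 and -10.25, values that depend on the prior count because the class then held 0 UMIs. The highest edgeR adjusted p over these 3 contrasts with a library left out was 0.00749.

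**Figure D1:**
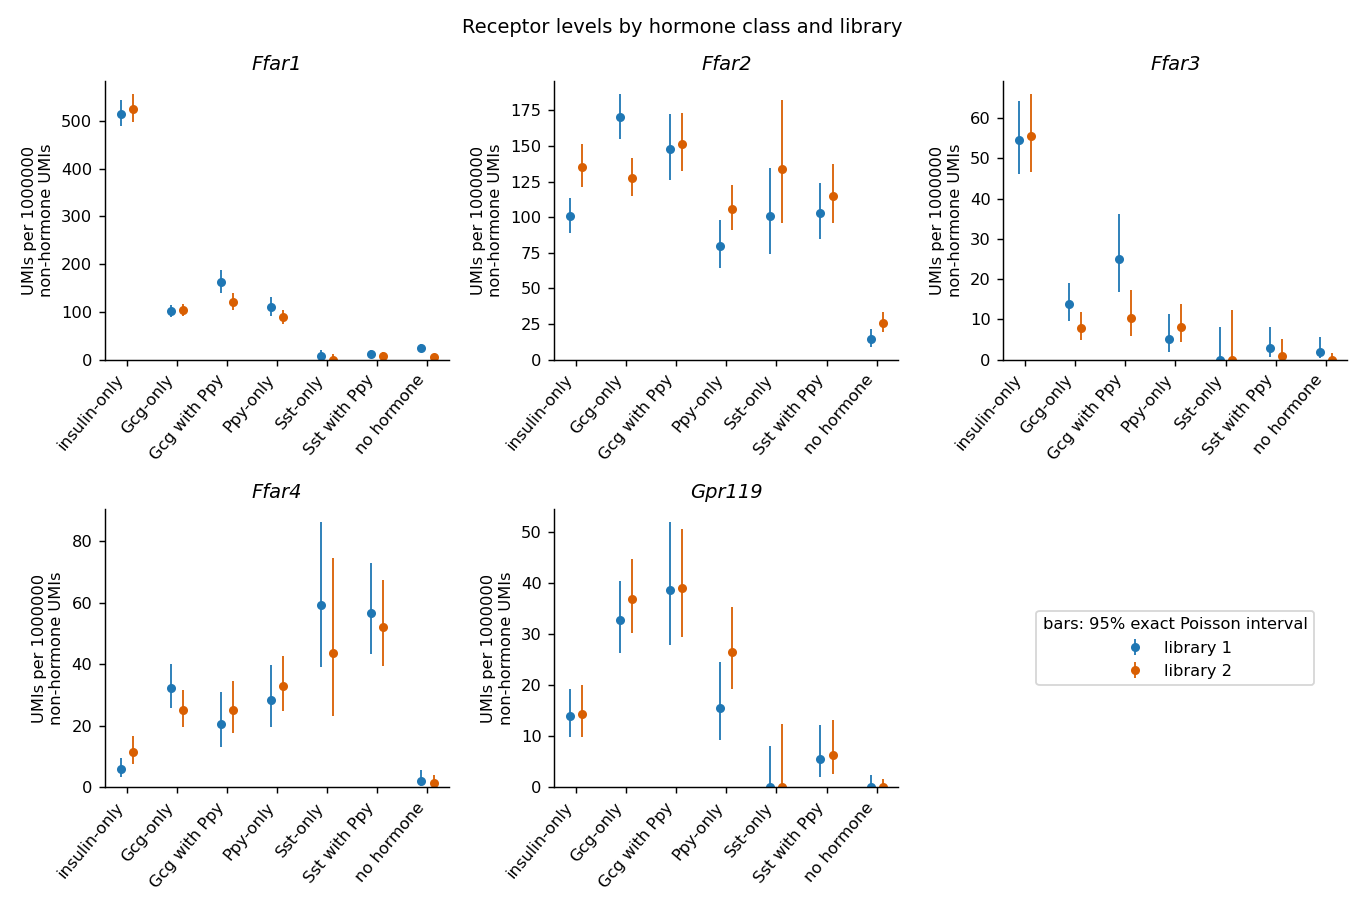
Level of each receptor (vertical axis, UMIs per 1000000 non-hormone UMIs, from 0) in 7 hormone classes, with a point for each library and bars for the 95% exact Poisson interval. Ffar1 and Ffar3 stand highest in insulin-only cells (515 and 526 for Ffar1), Ffar4 in cells with Sst, and Gpr119 in cells with Gcg, while for Ffar2 the insulin-only, Gcg-only and Sst-only classes overlap.

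The share of cells with a UMI differed too, but a share rises with the level, and thinning evens out depth alone. Whether the shares differed beyond what the levels give was not tested. A UMI of Ffar1 was found in 96.2% and 96.8% of insulin-only cells, and with every cell thinned to 10000 UMIs in 93.1% and 92.3%. In Gcg-only cells it was found in 53.8% and 55.7%, and after thinning in 41.7% and 44.5%. Ppy-only cells gave 37.0% and 29.4% after thinning. The median insulin-only cell held 6 UMIs of Ffar1 in both libraries and the highest held 27 and 31, against a median of 1 and a highest of 10 and 11 in Gcg-only cells. Ffar1 had 8.52 and 7.48 UMIs per 10000 insulin UMIs in insulin-only cells, 386 and 458 in Gcg-only cells and 401 and 407 in Ppy-only cells. In Sst-only cells, where the level was lowest among the hormone classes, 3.13% and 0% of cells had a Ffar1 UMI after thinning. The limit of 3 counts in 20 cells is 15.0%, and the exact 95% interval of 0 of 20 ends at 16.8%. The median depth was 13123 and 13692 UMIs in Sst-only cells and 19642 and 17170 in insulin-only cells. The part of free RNA in these levels was not tested.

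**Figure D2:**
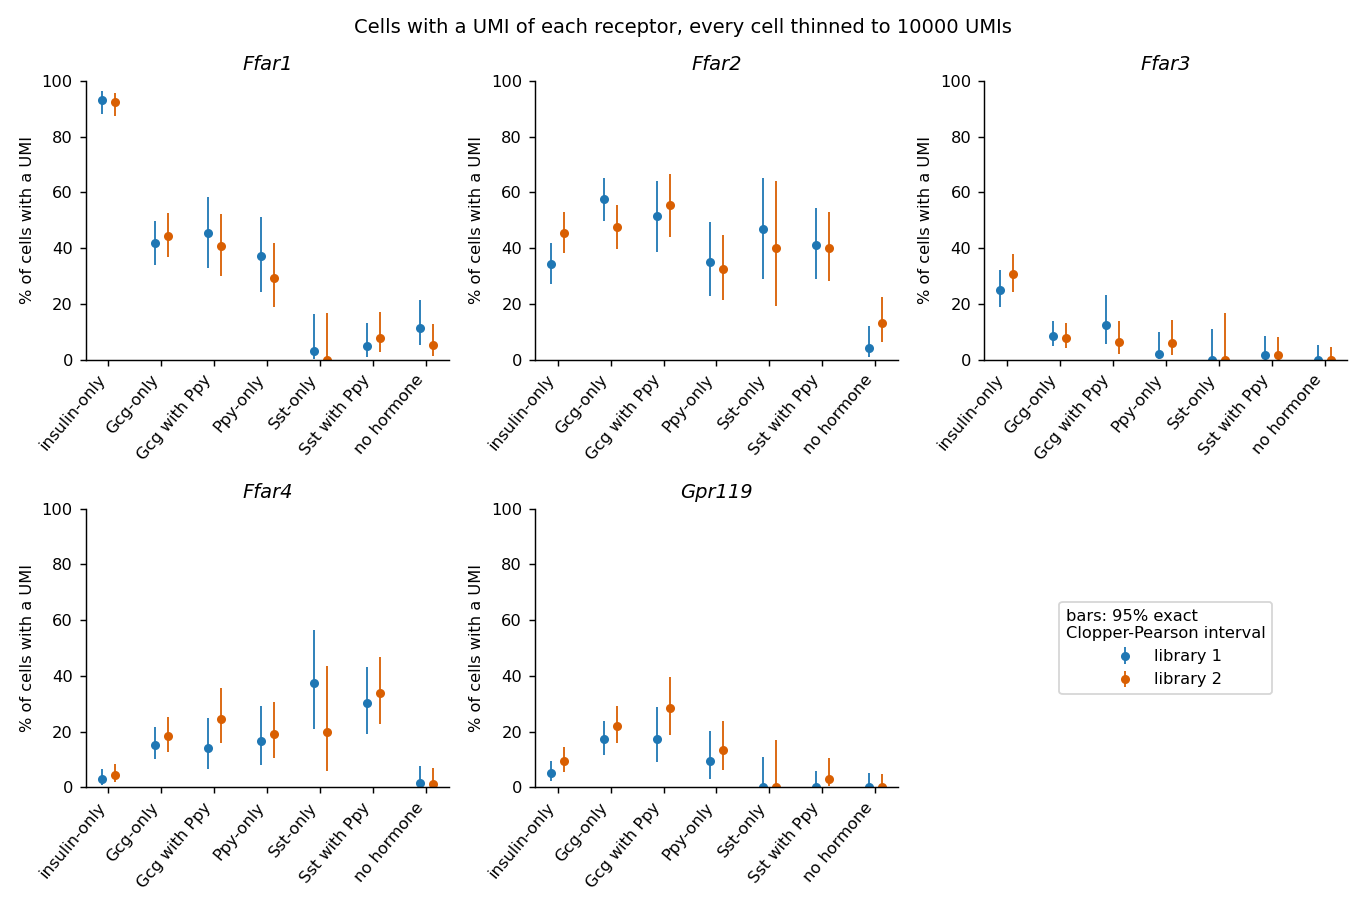
Percent of cells with at least 1 UMI of each receptor (vertical axis, 0 to 100%) in 7 hormone classes after thinning each cell to 10000 UMIs, by library, with 95% exact Clopper-Pearson intervals. Ffar1 reaches 93.1% and 92.3% in insulin-only cells, and the other receptors stay below 60% in all classes drawn.

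Ffar3, the short-chain fatty acid receptor next to Ffar1 on the chromosome, had the same leading class. Its level was 54.6 and 55.6 in insulin-only cells (55.1 ± 0.682, SD, n = 2), 13.7 and 7.79 in Gcg-only cells, 25.1 and 10.4 in cells with Gcg and Ppy, and 5.16 and 8.21 in Ppy-only cells. Sst-only cells had 0 UMIs of it in either library. Insulin-only cells were above the other classes in both libraries, and Gcg-only and Ppy-only cells overlapped within their counting intervals. Ffar3 was 5.2-fold higher in insulin-only than in Gcg-only cells (log2 fold change 2.38, SE 0.43, edgeR adjusted p = 0.000588) and 8.12-fold higher than in Ppy-only cells (3.02, SE 0.50, edgeR adjusted p = 0.00038). With a floor of 3 UMIs over both libraries, it was at least 13.8-fold higher in insulin-only than in Sst-only cells (edgeR adjusted p = 0.000539), and the counting interval of that ratio begins at 11.2. The 58 UMIs in Gcg-only cells against 0 in Sst-only cells did not pass (edgeR adjusted p = 0.0553), while with the library as a block the edgeR adjusted p was 0.0350. After thinning, 25.1% and 30.8% of insulin-only cells and 8.59% and 7.93% of Gcg-only cells had a UMI.

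The UMIs of Ffar3 per 100 UMIs of Ffar1 were compared between classes whose Ffar1 level differed. Over both libraries, the value was 10.6 in insulin-only cells (interval 9.33 to 12.0), 10.4 in Gcg-only cells (7.80 to 13.7), 12.1 in cells with Gcg and Ppy (8.61 to 16.7) and 7.14 in Ppy-only cells (4.30 to 11.2). All 4 intervals overlapped. By library the value was 10.6 in both for insulin-only cells, 13.6 and 7.53 for Gcg-only cells, 15.5 and 8.62 for cells with Gcg and Ppy, and 4.69 and 9.21 for Ppy-only cells. Cells with Sst and Ppy gave 19.0 from 4 UMIs of Ffar3 (interval 4.75 to 56.5). Across the 16 sums of a class and library in the fit, Pearson's r between log2 levels of Ffar1 and Ffar3 was 0.948, which made Ffar3 the fourth most similar of 14528 genes to Ffar1 and Ffar1 the most similar to Ffar3. This r is a description, since sums of a library share that library and sums at or near 0 UMIs weigh in it. Counts are per gene, so a transcript begun at Ffar1 was not told apart from one begun at Ffar3. Within insulin-only cells of library 1, 25.8% of thinned cells with a Ffar1 UMI and 16.7% of those without had a Ffar3 UMI, and in library 2 the shares were 31.0% and 28.6%. Only 12 and 14 thinned insulin-only cells had no Ffar1 UMI, and the intervals of these shares overlapped.

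**Figure D3:**
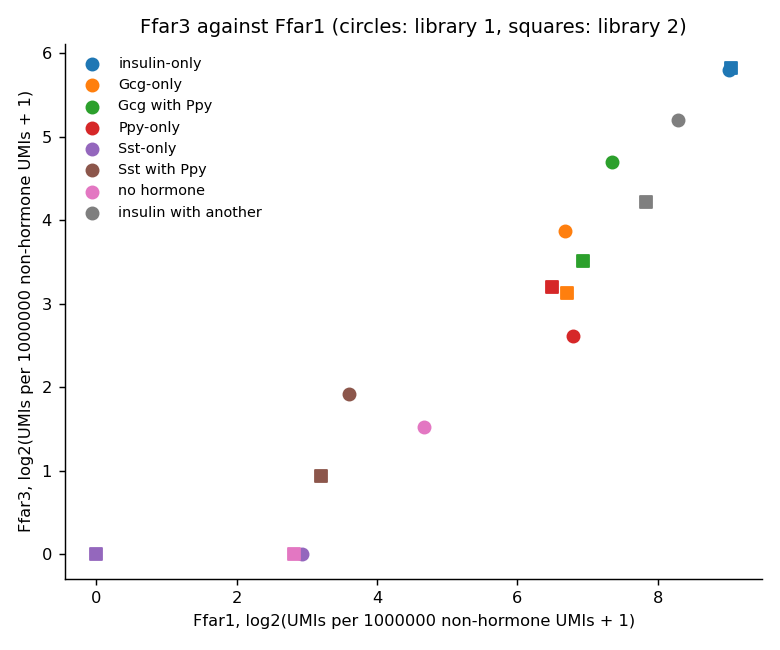
Level of Ffar3 (vertical axis) against that of Ffar1 (horizontal axis), both as log2(UMIs per 1000000 non-hormone UMIs + 1), for 8 classes in library 1 (circles) and library 2 (squares). Both genes are highest in insulin-only cells and lowest in Sst-only cells, with Gcg-only and Ppy-only cells between them.

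Ffar2, the receptor for short-chain fatty acids that lies further downstream, was shared by the hormone classes. Its level was 101 and 136 in insulin-only cells, 170 and 127 in Gcg-only cells, 148 and 152 in cells with Gcg and Ppy, 79.9 and 106 in Ppy-only cells, 101 and 134 in Sst-only cells, and 103 and 115 in cells with Sst and Ppy. The ranges of insulin-only, Gcg-only and Sst-only cells overlapped. It passed the test in 0 of 8 contrasts by edgeR, with an unadjusted p under 0.05 in 1 of them, and in 0 of 8 by DESeq2. The largest log2 fold change was 0.68 (SE 0.21) for Gcg-only against Ppy-only cells, with an edgeR adjusted p of 0.0502, just outside the threshold of 0.05. With the library as a block that edgeR adjusted p was 0.0340. For insulin-only against Gcg-only cells it was -0.31 with a 95% interval of -0.77 to 0.14 (edgeR adjusted p = 0.282). Cells without a hormone had the lowest level, 14.5 and 25.5. After thinning, a Ffar2 UMI was found in 34.3% and 45.6% of insulin-only cells, 57.7% and 47.6% of Gcg-only cells, and 46.9% and 40.0% of Sst-only cells.

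Ffar4, the other long-chain fatty acid receptor, was lowest among the hormone classes where Ffar1 was highest. Its level was 59.3 and 43.6 in Sst-only cells (51.5 ± 11.1, SD, n = 2) and 56.7 and 52.1 in cells with Sst and Ppy (54.4 ± 3.27). It was 32.4 and 25.1 in Gcg-only cells, 20.6 and 25.0 in cells with Gcg and Ppy, 28.4 and 32.8 in Ppy-only cells, and 5.91 and 11.4 in insulin-only cells. Sst-only cells and cells with Sst and Ppy lay above the other hormone classes in both libraries, and insulin-only cells lay below them. Ffar4 was 5.55-fold higher in Sst-only than in insulin-only cells (log2 fold change of insulin-only minus Sst-only -2.47, SE 0.36, edgeR adjusted p = 0.00011). It was 3.29-fold higher in Gcg-only than in insulin-only cells (-1.72, SE 0.30, edgeR adjusted p = 0.000328) and 3.49-fold higher in Ppy-only than in insulin-only cells (-1.80, SE 0.31, edgeR adjusted p = 0.000445). The step from Gcg-only to Sst-only cells did not pass (log2 fold change -0.76, 95% interval -1.48 to -0.03, edgeR adjusted p = 0.138), nor did that from Ppy-only to Sst-only cells (0.67, interval -0.08 to 1.42, edgeR adjusted p = 0.234). After thinning, 37.5% and 20% of Sst-only cells and 2.86% and 4.40% of insulin-only cells had a UMI. The Sst-only sum of library 1 also held markers of other cell kinds. Its endothelial list summed to 624 against 53.6 in library 2, and its leukocyte list to 189 against 13.4, while cells without a hormone had 7072 and 8949 of the first and 4075 and 3990 of the second. The acinar list summed to 312 and 154 in Sst-only cells and to 273 and 233 in cells with Sst and Ppy. It summed to 7.01 to 21.1 in insulin-only, Gcg-only and Ppy-only cells. In Sst-only cells 5 of its 7 genes were at 0, where a gene outside the 6 that were measured also counts as 0. Endothelial-like cells had 0 Ffar4 UMIs in both libraries, and leukocyte-like cells had 3 and 1, a level of 5.06 and 1.57. The part of these markers in the Sst-only levels was not tested.

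Gpr119, the receptor for oleoylethanolamide and monoacylglycerols, was highest in cells with Gcg. Its level was 32.8 and 36.8 in Gcg-only cells (34.8 ± 2.88, SD, n = 2), 38.5 and 38.9 in cells with Gcg and Ppy, 15.5 and 26.4 in Ppy-only cells, and 14.0 and 14.3 in insulin-only cells (14.2 ± 0.207). Sst-only cells had 0 UMIs, and cells with Sst and Ppy had 5.58 and 6.40. The classes with Gcg lay above the others in both libraries, but Gcg-only minus Ppy-only cells did not pass the test (log2 fold change 0.71, 95% interval -0.008 to 1.43, edgeR adjusted p = 0.191). The difference of Ppy-only from insulin-only cells did not pass either (log2 fold change of insulin-only minus Ppy-only -0.56, 95% interval -1.33 to 0.22, edgeR adjusted p = 0.28). Gpr119 was 2.41-fold higher in Gcg-only than in insulin-only cells (log2 fold change of insulin-only minus Gcg-only -1.27, SE 0.31, edgeR adjusted p = 0.00626). This call was lost when library 1 of the insulin-only cells or library 2 of the Gcg-only cells was left out, where the log2 fold change was -1.24 and -1.19. With the floor of 3 UMIs over both libraries, the level was at least 8.76-fold higher in Gcg-only than in Sst-only cells (edgeR adjusted p = 0.000198), at least 5.51-fold higher in Ppy-only cells (edgeR adjusted p = 0.00198) and at least 3.56-fold higher in insulin-only cells (edgeR adjusted p = 0.00398). The counting intervals of these 3 ratios begin at 7.05, 4.35 and 2.82. The last call was lost without library 1 of the Sst-only cells, where the log2 fold change was 7.49. After thinning, a UMI was found in 17.2% and 22.0% of Gcg-only cells and in 5.14% and 9.34% of insulin-only cells.

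The counts of receptors that passed the test were read against those of all genes. Insulin-only against Gcg-only cells called 4 of the 5 receptors, where 25.6% of all genes tested were called. Insulin-only against Sst-only cells called 4 of 5 (14.7% of all genes), and insulin-only against Ppy-only cells called 3 of 5 (20.7%). Gcg-only against Sst-only cells called 2 of 5 (12.8%), Sst-only against Ppy-only cells called 2 of 5 (9.47%), and Gcg-only against Ppy-only cells called 0 of 5 (9.84%). The number of members is too small for these shares to be more than a description.

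**Figure D4:**
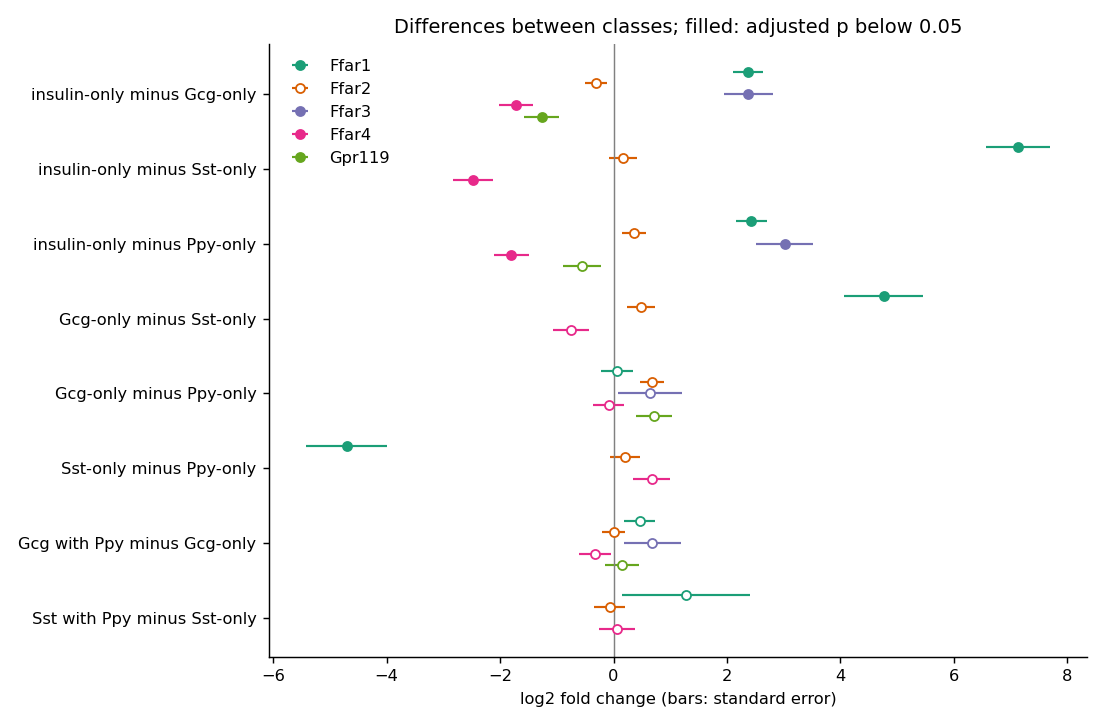
Log2 fold change of each receptor (horizontal axis, bars for the standard error) in 8 contrasts between classes, with filled points for an adjusted p below 0.05 by edgeR. Contrasts against a class with 0 UMIs are not drawn. In the 3 contrasts with insulin-only cells Ffar1 lies to the right and Ffar4 to the left of 0, and both contrasts at the bottom have open points alone.

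The presence of Ppy beside the first hormone moved no receptor past the threshold. Cells with Gcg and Ppy against Gcg-only cells called 0 of 5 receptors and 0.0344% of all genes (edgeR quasi-likelihood, 5 of 14528), with 816 genes at an unadjusted p under 0.05 and 10 called by DESeq2. The log2 fold changes of the receptors ran from -0.32 (Ffar4, SE 0.29) to 0.68 (Ffar3, SE 0.50). By counting error alone, the ratio was 1.36 for Ffar1 (interval 1.19 to 1.56) and 1.58 for Ffar3 (1.04 to 2.39). The intervals of Ffar2, Ffar4 and Gpr119 included equal levels. The top 3 cells with Gcg and Ppy held 60.7% of the Ffar3 UMIs in library 1 and 33.3% in library 2. Cells with Sst and Ppy against Sst-only cells called 0 of 5 and 0.0138% of all genes (edgeR quasi-likelihood, 2 of 14528), with 933 genes at an unadjusted p under 0.05 and 2 called by DESeq2. For Ffar4 the log2 fold change was 0.06 with a 95% interval of -0.67 to 0.78. Gpr119 had 13 UMIs in cells with Sst and Ppy against 0 in Sst-only cells (log2 fold change 6.07, 95% interval 1.43 to 10.7, edgeR unadjusted p = 0.00892, edgeR adjusted p = 0.743). The size of that change depends on the prior count, since Sst-only cells held 0 UMIs. The counting interval of the ratio begins at 1.06. Cells with insulin and another hormone had Ffar1 levels of 312 and 228, between those of insulin-only and Gcg-only cells, and Ffar4 levels of 20.7 and 21.2. Their median depth was 23139 and 20733 UMIs, against 19642 and 17170 in insulin-only cells, and the part of doublets in these levels was not tested. Cells with Gcg and Sst, too few for the test, had a Ffar2 level of 167 and 173, a Gpr119 level of 32.7 and 27.9, and a Ffar1 level of 88.2 and 61.3.

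Among insulin-only cells, Ffar4 UMIs lay almost wholly in cells with less insulin. Cells of each library were split at the median insulin share, which was 38.7% of UMIs in library 1 and 41.5% in library 2. Of the 43 Ffar4 UMIs, 16 and 26 lay in the cells below that median and 0 and 1 in those above. The level was 9.71 (interval 5.55 to 15.8) against 0 (0 to 3.47) in library 1 and 18.3 (11.9 to 26.8) against 1.05 (0.0266 to 5.86) in library 2, with no overlap in either. Ffar1 went the other way, at 478 below and 574 above the median in library 1 and 480 and 594 in library 2, again with intervals that did not overlap. Ffar2 was also higher above the median, at 83.8 and 127 in library 1, without overlap, and 124 and 154 in library 2, with overlap. Ffar3 had no common direction, at 59.5 and 47.1 in library 1 and 48.5 and 66.2 in library 2. Neither had Gpr119, at 18.2 and 7.53 in library 1 and 14.0 and 14.7 in library 2. The counting intervals take UMIs as independent, while the top 3 insulin-only cells held 50% and 29.6% of the Ffar4 UMIs. The 10 and 17 insulin-only cells with a Ffar4 UMI had a median insulin share of 24.9% and 29.4%, against 39.5% and 42.2% in the cells without. Their Ffar1 level was 480 and 566, and the median Sst share was 0.0109% and 0.012% of UMIs, against 0.0135% and 0.0114% in the cells without Ffar4. They were deeper, with a median of 28165 and 30224 UMIs against 18858 and 17165, and the part of depth was not tested. Cells are not replicates, so no test was run.

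**Figure D5:**
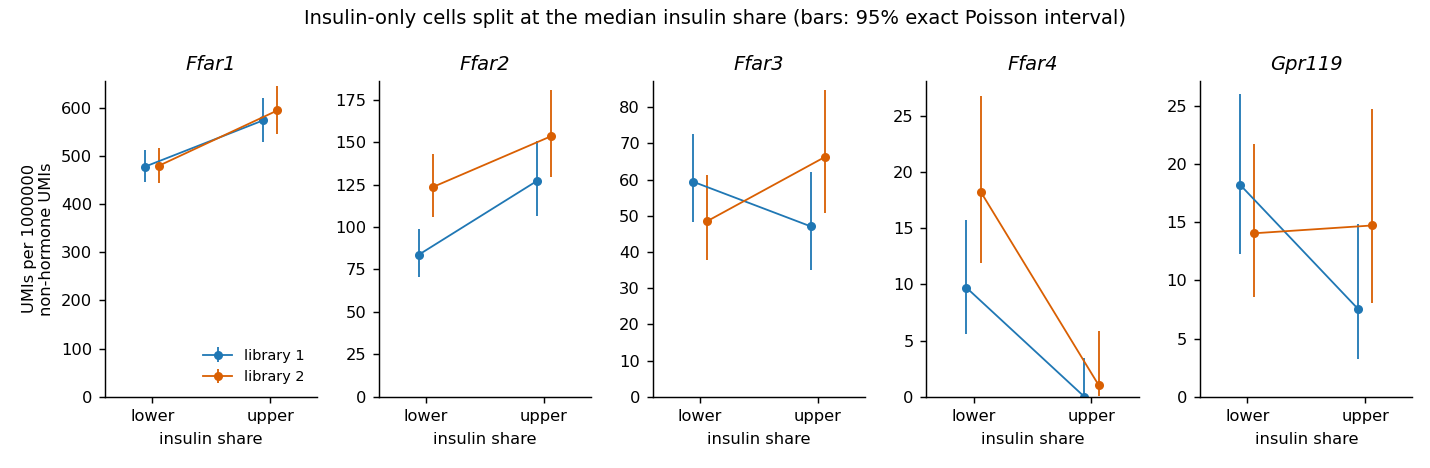
Level of each receptor (vertical axis, UMIs per 1000000 non-hormone UMIs, from 0) in insulin-only cells below (lower) and above (upper) the median insulin share, by library, with 95% exact Poisson intervals. Ffar4 is at 9.71 and 18.3 below and at 0 and 1.05 above the median, and Ffar1 is at 478 and 480 below and at 574 and 594 above it.

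In Gcg-only cells Ffar1 was higher where the hormone share was lower. Split in the same way, it was at 121 below and 82.5 above the median Gcg share in library 1, and 127 and 82.4 in library 2, with intervals that did not overlap in either library. Ppy-only cells gave 127 and 88.8 in library 1 and 108 and 70.1 in library 2, with intervals that overlapped. Ffar4 and Gpr119 in Gcg-only cells differed across the median by less than their counting intervals, at 31.0 and 33.6 for Ffar4 and 31.0 and 34.3 for Gpr119 in library 1.

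Outside the hormone classes, receptor UMIs were found in cells with leukocyte genes, in a few endocrine cells and in some other cells. Of the cells without a hormone, 28 and 34 were endothelial-like, 42 and 40 were leukocyte-like, and 21 and 18 were neither, each name resting on at least 3 detected markers. Gpr119 had 0 UMIs in all of them, which with 91 and 92 cells allows a level of up to 1.89 and 1.39 by the limit of 3 counts (exact intervals end at 2.32 and 1.71). Ffar1 was at 38.8 (interval 24.6 to 58.2) and 18.8 (9.72 to 32.8) in leukocyte-like cells and at 2.22 (0.0562 to 12.4) and 0 (0 to 3.76) in endothelial-like cells. Ffar2 had 7 and 21 UMIs in leukocyte-like cells, 0 and 3 in endothelial-like cells and 16 and 31 in cells that were neither. The split that follows was chosen after these values were seen. Cells with Ptprc, the pan-leukocyte antigen CD45, held 23 and 12 Ffar1 UMIs, and 22 and 12 of these lay in the 24 and 16 cells that also had a UMI of Cd79a, Cd79b or Ms4a1, genes of B cells. The level there was 56.1 and 36.6, against 4.65 and 0 in the 19 and 24 cells without such a UMI. Ffar2 was at 17.9 and 57.9 in the cells with B cell genes against 0 and 10.8 in those without, with intervals that overlapped in library 1, where 2 cells held all 7 UMIs.

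The cells without a hormone also included 4 in library 1 and 5 in library 2 with at least 100 UMIs of Chga, the chromogranin of endocrine granules, again a limit set after the values were seen. They held 16 and 19 Ffar2 UMIs, up to 9 and 13 in a single cell, which gave a level of 196 (interval 112 to 319) and 76.9 (46.3 to 120). The remaining cells without a hormone had a level of 4.64 and 18.8, with up to 6 and 10 Ffar2 UMIs in a single cell. Ffar1 reached 160 in those 4 cells and 4.05 in those 5, and Ffar4 had 0 and 1 UMIs.

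The partners of these receptors were read from 7 lists with 124 genes, of which 98 were tested, with 25.6% of all genes called between insulin-only and Gcg-only cells as the background. For the counts in other contrasts it was 14.7% for insulin-only against Sst-only, 20.7% for insulin-only against Ppy-only, 12.8% for Gcg-only against Sst-only, 9.84% for Gcg-only against Ppy-only and 9.47% for Sst-only against Ppy-only cells. In the Gq and phospholipase C arm, 8 of 14 genes tested differed between insulin-only and Gcg-only cells, 5 higher and 3 lower in insulin-only cells, with a median log2 fold change of 0.20 against -0.01 over all genes. Itpr2, an inositol trisphosphate receptor that releases calcium from stores, was at 81.6 and 91.4 in insulin-only cells, 8.38 and 6.37 in Gcg-only cells, 31.8 and 18.8 in Ppy-only cells and 6.59 and 0 in Sst-only cells. Itpr1, its paralog, was lower in insulin-only cells, at 85.3 and 104, than in Gcg-only cells, at 449 and 398 (log2 fold change -2.14, edgeR adjusted p = 6.87e-08). In the contrasts of insulin-only with Sst-only and Ppy-only cells, 7 of 14 were called in each, 5 of them higher in insulin-only cells. Prkd1, protein kinase D1, was at 36.9 and 40.8 in insulin-only cells, 56.4 and 63.4 in Gcg-only cells and 4.39 and 3.35 in Sst-only cells. Gcg-only against Sst-only cells called 3 of 14, Gcg-only against Ppy-only cells 4 of 14, and Sst-only against Ppy-only cells 3 of 14.

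In the Gs and cAMP arm, on which Gpr119 acts, 8 of 17 genes differed between insulin-only and Gcg-only cells, 3 higher and 5 lower in insulin-only cells, with a median log2 fold change of 0 against -0.01. Gnas, the gene of the Gs alpha subunit, was at 62.0 and 77.5 in insulin-only cells, 872 and 909 in Gcg-only cells, 292 and 274 in Ppy-only cells and 1086 and 986 in Sst-only cells (insulin-only minus Gcg-only -3.65, edgeR adjusted p = 1.02e-11). Counts are per gene, so transcripts of Gnas were not told apart. Adcy1, an adenylyl cyclase, was at 0.369 and 0 in insulin-only cells, 20.9 and 17.0 in Gcg-only cells and 0 in Ppy-only cells. Adcy2, another cyclase, was at 15.4 and 13.4 in Sst-only cells, 6.02 and 4.10 in Ppy-only cells, and 0 in Gcg-only cells. Insulin-only against Sst-only cells called 6 of 17, insulin-only against Ppy-only cells 4, Gcg-only against Sst-only cells 6, Gcg-only against Ppy-only cells 5, and Sst-only against Ppy-only cells 1.

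In the Gi and arrestin arm, 4 of 12 genes differed between insulin-only and Gcg-only cells, 2 in each direction, and the median log2 fold change was 0.15. Grk5, a receptor kinase, was at 56.5 and 65.3 in insulin-only cells, 17.5 and 18.8 in Gcg-only cells, 7.73 and 5.28 in Ppy-only cells and 6.59 and 6.7 in Sst-only cells. Gnai1, a Gi alpha subunit, was at 59.4 and 50.1 in insulin-only cells, 147 and 161 in Gcg-only cells and 19.8 and 16.8 in Sst-only cells. Arrb1, an arrestin, was at 1.11 and 0.842 in insulin-only cells and at 13.2 and 13.4 in Sst-only cells (log2 fold change -3.51, edgeR adjusted p = 0.00229). The remaining single-hormone contrasts called 3 to 5 of 12.

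Genes that supply or use lipid ligands were read in the same way. Of the fatty acid uptake and activation list, 5 of 15 were called between insulin-only and Gcg-only cells (median log2 fold change 0.11). Fabp5, a fatty acid binding protein, was at 63.7 and 77.1 in Sst-only cells, 2.21 and 0.421 in insulin-only cells, 1.90 and 2.48 in Gcg-only cells and 1.72 and 4.69 in Ppy-only cells. Slc27a2, a very long-chain fatty acid transporter and synthetase, was at 19.8 and 28.3 in Gcg-only cells and 0.738 and 1.68 in insulin-only cells. Of the list for release and breakdown of lipid ligands, 4 of 15 were called between insulin-only and Gcg-only cells (median -0.22). Lpl, lipoprotein lipase, which frees fatty acids from triglycerides, was at 1258 and 1291 in Gcg-only cells, 513 and 598 in insulin-only cells, 253 and 242 in Ppy-only cells and 35.2 and 3.35 in Sst-only cells, and it passed the edgeR test in all 6 single-hormone contrasts. Abhd6, a monoacylglycerol lipase, was at 48.3 and 54.3 in insulin-only cells and 15.4 and 16.8 in Sst-only cells (log2 fold change 1.82, edgeR adjusted p = 0.0016).

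Of 33 other lipid receptors coupled to G proteins, 16 were tested, and Hcar1, the lactate receptor, was called in 4 of the 6 single-hormone contrasts and was the only one called in any. It was at 21.3 and 23.0 in Gcg-only cells, 13.8 and 18.8 in Ppy-only cells, 1.48 and 0.421 in insulin-only cells and 2.20 and 3.35 in Sst-only cells. Among the nuclear lipid receptors, 4 of 9 differed between insulin-only and Gcg-only cells (median log2 fold change 0.21). Nr1h3, the liver X receptor alpha, was at 18.5 and 16.8 in insulin-only cells and 0.762 and 1.06 in Gcg-only cells, and Pparg was at 8.86 and 9.26 and at 0.381 and 0.708. In the 2 contrasts that added Ppy to a first hormone, 0 genes of the 7 lists were called by edgeR.

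Genes with a pattern most like that of each receptor were found by Pearson's r of log2 levels over the 16 sums, as a description. For Ffar1 they were Il1r1 (r = 0.955), an interleukin 1 receptor, Slc35d3 (0.952), Lhx1os (0.948), Ffar3 and Tmem163 (0.941). Il1r1 was at 395 and 358 in insulin-only cells, 217 and 212 in Gcg-only cells and 50.5 and 33.5 in Sst-only cells. For Ffar3, Hspa5, Il1r1, Rad51ap2 and Cyb5r3 followed Ffar1. For Ffar4 they were Gprasp1 (0.970), Krba1, Ocrl, Sgk2 and Slc4a3, and Gprasp1 was at 774 and 771 in Sst-only cells, 413 and 416 in Gcg-only cells, 228 and 233 in insulin-only cells and 59.7 and 75.5 in cells without a hormone. For Gpr119 they were Gnai1 (0.933), Agap1, Zfp651, Arnt2 and Sra1. For Ffar2 they were Nisch (0.971), Dst, Lrrc73, Gm49599 and Rims2, whose lowest levels were in cells without a hormone. Between the receptors, r was 0.73 for Ffar1 with Gpr119 and for Ffar3 with Gpr119, 0.72 for Ffar2 with Ffar4 and -0.19 for Ffar1 with Ffar4. Sums with few UMIs of a receptor, such as those of Sst-only cells or of cells without a hormone, weigh in these values. Between insulin-only and Gcg-only cells, Ffar1 and Gpr119 differed in opposite directions (log2 fold change 2.37 and -1.27).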

How the data were processed

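RevGel-seq counts were measured in 2 libraries of control mouse islets. The authors deposited 1 table of raw counts per library, with deduplicated UMIs per gene and barcode. Cytonaut, by the methods, kept barcodes above a knee in depth, aligned reads to exons and deduplicated them, with GRCm38 as the build. Intronic reads are therefore not in the counts, and empty barcodes were not analysed here. Genes missing from 1 table were given 0 there. The tables shared 0 barcodes. Of the identifiers, 32971 of 33038 (99.8%) were found in GENCODE M21, which gave coordinates. All cells were kept. The shallowest cell had 4704 UMIs in library 1 and 5032 in library 2, and the median cell 17340 and 18922. Scrublet, run by scanpy 1.11.5 in Python 3.11.15, marked 8 cells per library (1.08%) as doublets, which were kept and removed as an alternative.

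Counts were summed per class and library for the 8 classes with at least 20 cells in each library, without the 5 hormone genes, and went into edgeR 4.0.16 under R 4.3.3 (TMM, filterByExpr, glmQLFit and glmQLFTest, threshold 0.05, Benjamini-Hochberg adjustment per contrast). The fit had 16 sums and 8 residual degrees of freedom. An exact permutation test of 2 against 2 sums has 0.333 as its smallest two-sided p, and levels and shares were set against their intervals and not tested. A count of 0 was read as allowing 3 counts. Cells under 10000 UMIs were left out of the thinned shares, and thinning hormone UMIs along with the rest leaves fewer other UMIs in insulin-rich cells. Sums with the same number share a library, and their deviations correlated at -0.09 to 0.14 (median 0.0097).

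Alternatives were DESeq2 1.42.0, RLE size factors, no filter, a replicate block, hormone thresholds of 0.5% and 2%, hormone genes kept, doublets removed, the deepest 5% of cells removed, adjustment over 8 contrasts and leaving out each sum. The receptors, the lists and the marker genes were chosen with earlier results of these data known. Named besides the receptors were at most 2 genes of each list per contrast, those with the largest change past the threshold, and the 5 genes most like each receptor. Promoter windows are 250 bases before RefSeq starts.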

Additional observations from a re-analysis of the deposited data

How the results depend on the processing

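Over the 40 log2 fold changes of the 5 receptors in 8 contrasts, 580 alternatives were computed. Of these, 549 kept the direction and the side of the threshold, 14 moved a value past it, 3 lost a call and 14 changed the sign of a value that was called neither before nor after. Ffar2 in Gcg-only minus Ppy-only cells passed with no filter (0.70), with the replicate block (0.70), with hormone genes kept (0.69), without the deepest 5% of cells (0.84), with adjustment over 8 contrasts (0.68) and without the classes of no hormone and of insulin with another (0.67), the last chosen after seeing the data. Ffar3 in Gcg-only minus Sst-only cells passed by DESeq2 (4.48), with no filter (7.03), with the replicate block (7.05), at a hormone threshold of 2% (7.20), without the deepest 5% (6.81) and without those classes (7.09). Ffar2 in insulin-only minus Ppy-only cells passed without the deepest 5% (0.56), and Ffar3 in Sst-only minus Ppy-only cells with no filter (-6.36). The replicate block changed no other call. Signs changed for Ffar2 in Sst-only minus Ppy-only (-0.054) and Sst with Ppy minus Sst-only cells (0.28) at the threshold of 2%, and in Gcg with Ppy minus Gcg-only cells with no filter (-0.019) and with the block (-0.0074).

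With each sum left out in turn, the lone library of a class is assumed to vary like the other classes. Gpr119 then ran from -1.34 to -1.19 in insulin-only minus Gcg-only cells, with edgeR adjusted p from 0.0351 to 0.0685, and from 7.35 to 7.50 in insulin-only minus Sst-only cells, with edgeR adjusted p from 0.0105 to 0.0655. Ranges that crossed 0 were -0.11 to 0.22 for Ffar1 and -0.28 to 0.094 for Ffar4 in Gcg-only minus Ppy-only cells, -0.073 to 0.38 for Ffar2 in insulin-only minus Sst-only cells, -0.19 to 0.24 for Ffar2 and -0.054 to 1.24 for Ffar3 in Gcg with Ppy minus Gcg-only cells, and -0.29 to 0.12 for Ffar2 and -0.12 to 0.33 for Ffar4 in Sst with Ppy minus Sst-only cells.

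Counts of genes called fell with a sum left out, from 3716 to between 2312 and 2597 for insulin-only minus Gcg-only cells, from 2138 to between 1212 and 1568 for insulin-only minus Sst-only, from 3003 to between 1682 and 2037 for insulin-only minus Ppy-only, from 1862 to between 1062 and 1322 for Gcg-only minus Sst-only, from 1429 to between 590 and 798 for Gcg-only minus Ppy-only, and from 1376 to between 744 and 957 for Sst-only minus Ppy-only cells. The change was over 1.5 times for each sum except insulin-only library 1 in its 3 contrasts, Sst-only library 2 in its 3, and Ppy-only library 1 against insulin-only and Sst-only cells. Without the classes of no hormone and of insulin with another, Gcg-only minus Ppy-only cells called 2310. The contrasts that added Ppy called 4 to 144 and 0 to 93 genes under the settings that kept all sums, against 5 and 2. At the threshold of 0.5% no Sst-only class of 20 cells was left, so contrasts with it were not run there. Levels stayed within 1 SD over the 2 libraries in 202 of 240 alternatives and thinned shares in 21 of 90, since shares move with depth. Leaving out a library cannot move a mean of 2 libraries by more than their SD. The level alternatives that left out a library could therefore not count as moved. The 35 and 23 Sst-only cells limit what can be said of genes near the floor.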
